A study of Rattus norvegicus with 10 samples.

Results

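The genes described here are 60 genes of the cell division cycle, chosen by name: 13 of the G1/S transition (D-type and E-type cyclins, their kinases, E2F factors and the RB family), 14 of DNA replication and 33 of mitosis. They were looked up by symbol in the platform annotation of a rat whole-transcript array, and 51 of the 60 had a named probeset, out of 15037 genes named on the array. Of these 51, 11 belong to the G1/S transition, 13 to replication and 27 to mitosis. The other 9 (Anln, Bub1b, Cdc25c, Cenpe, E2f2, Mcm5, Plk4, Rb1 and Top2a) had no probeset under their symbol and are not analysed here.

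The 10 arrays measured RNA of nucleus pulposus cells, which fill the soft centre of the spinal disc, isolated from male Sprague Dawley rats whose age was given as 3 to 4 months and whose weight as 300 grams. The knockdown cells, ShBNIP3 (5 arrays, numbered 6 to 10 in the titles), were transduced with a lentivirus against BNIP3, a mitophagy receptor, which sits on mitochondria and recruits the autophagy machinery that degrades them. The control cells, ShCtrl (5 arrays, numbered 1 to 5), received control ShRNA in pLKO.1, so both groups carry a lentiviral vector, and no untransduced cells are among the arrays. RNA was taken 4 days after transduction. The labels do not give the hairpin's sequence, and they do not tell whether replicate arrays stem from different cultures or rats, so the p-values measure the spread between these arrays, which may be technical.

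Progression through the cell cycle is driven by cyclins and the kinases they activate. D-type cyclins with Cdk4 or Cdk6, and E-type cyclins with Cdk2, inactivate the RB family in G1, which frees E2F factors to switch on genes for licensing and copying DNA. Genes for mitosis follow later, under FOXM1, B-MYB and the MuvB complex, and are repressed by the DREAM complex in resting cells.

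Levels are the deposited, normalized log2 values, and means are given ± SD with n = 5 per group. A difference is ShBNIP3 minus ShCtrl in log2 units, so a positive one is higher in ShBNIP3 and 1 unit is a 2-fold change. A gene is said to have risen or fallen where its adjusted p was under 0.05 in limma, fitted to all 23188 probesets and adjusted by Benjamini-Hochberg, and every adjusted p comes from this fit unless an array is said to be left out. A probeset was taken as below background on an array where it lay under the 95th percentile of that array's 23 background probesets, a level between 6.50 and 6.78. Values are listed for arrays 6 to 10 of ShBNIP3 and then for arrays 1 to 5 of ShCtrl.

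Bnip3 itself was at 11.14, 11.26, 10.59, 11.31 and 12.68 in ShBNIP3, against 14.29, 14.29, 13.94, 15.97 and 14.54 in ShCtrl, so the 2 groups did not overlap and the labels hold for the targeted gene (difference -3.21, SE 0.40, adjusted p = 0.0002). ShCtrl array 4 and ShBNIP3 array 10 stood apart from their groups, with mean within-group correlations of 0.983 and 0.986 against 0.992 for the other arrays, and the counts below are also given without them. Array medians lay between 6.18 and 6.22. Of the markers of nucleus pulposus cells, Acan, Col2a1, Car3, Slc2a1 and Basp1 were above background on all arrays, while Tbxt, Noto, Shh, Krt8, Krt18 and Krt19 were below background on all arrays. Markers of fibroblasts and annulus fibrosus were bright: their mean level over 13 genes lay between 13.92 and 14.09 in ShBNIP3 and between 14.18 and 14.26 in ShCtrl. Of these 13 genes, 6 fell (46.2%, against 8.27% of named genes) and 0 rose. Over 14 nucleus pulposus markers the mean lay between 6.88 and 7.01 in ShBNIP3 and between 7.08 and 7.74 in ShCtrl. Of these 14, 3 fell (Car3, Col2a1 and Basp1, 21.4%, against 8.27% of named genes) and 1 rose (7.14%, against 8.87%). The marker that rose, Cdh2, was below background on all ShCtrl arrays (adjusted p = 0.000523). Of the 15 macrophage and leukocyte markers 13, and of the 11 endothelial markers 10, were below background on all arrays, Ptprc and Pecam1 among them. Of the macrophage and leukocyte list Cd68, Cd14 and Cd53 were higher in ShBNIP3 (20%, against 8.87% of named genes), with Cd53 below background on all arrays. The mean level of this list lay between 4.82 and 5.07 in ShBNIP3 and between 4.62 and 4.88 in ShCtrl. The part of these shifts in the results below was not tested, and in such bulk samples fewer cells of a type and less RNA per cell cannot be told apart.

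Of the 11 genes among the 51 that fell in ShBNIP3, 9 were genes of mitosis, which make up 27 of the 51. Of the 27 mitotic genes measured, 9 fell and 0 rose, 26 of 27 differences were negative, and the median difference was -0.67. Of the 13 replication genes 1 fell and 1 rose, with a median of -0.19, and of the 11 G1/S genes 1 fell and 0 rose, with a median of 0.01. In all, 11 of 51 genes (21.6%) fell, against 7.87% of all probesets and 8.27% of named genes, and 1 of 51 (1.96%) rose, against 7.61% of all probesets and 8.87% of named genes. The median difference was -0.43 against 0.02 for all probesets. The genes were chosen with earlier results of these data known, so these shares and medians are no independent evidence of an excess. Of the genes that passed, 5 were lower by at least 1 log2 unit, against 2.74% of all probesets and 3.07% of named genes, and 0 were higher by that much, against 1.44% and 1.74%. On every array the median over all probesets lay below background, while 33 of the 51 genes were above background on every array. The shares of all probesets therefore include many dim ones, and a share over brighter probesets was not counted. The whole range of the 51 differences ran between -1.19 and 0.93. At an unadjusted p under 0.05, 18 genes were lower and 3 higher. The count that fell was 7 without ShCtrl array 3, 5 when ShCtrl array 5 was left out, 5 when ShBNIP3 array 7 was, and 6 when ShBNIP3 array 8 or 9 was, and it was 16 without ShCtrl array 1. The mitotic count was 5 without ShCtrl array 3 or 5 or ShBNIP3 array 7 or 9, and 14 without ShCtrl array 1. The share of all probesets that fell was not counted in these fits, so a general change in calls is not set apart.

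**Figure D1:**
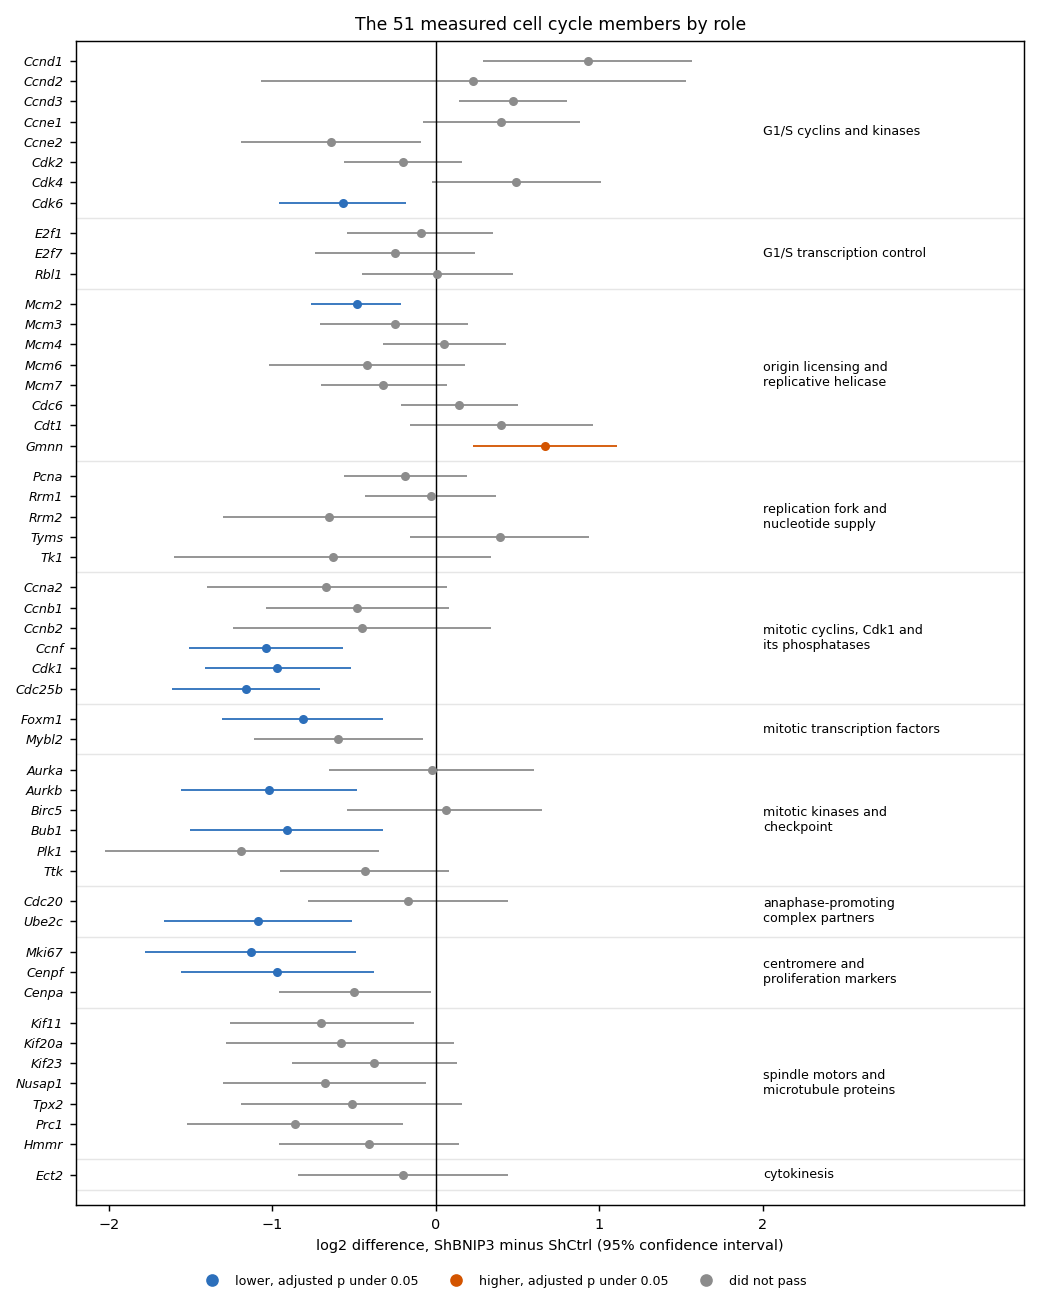
Differences (ShBNIP3 minus ShCtrl, log2, points) with 95% confidence intervals (bars) for the 51 measured genes, grouped by role. Points for mitotic roles lie left of 0 except Birc5 at 0.06, and those for G1/S cyclins and kinases spread on both sides, between -0.64 and 0.93.

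Depth of detection differed among the genes. Of the 51, 33 were above background on every array, 6 were below it on every array (Ccne1, E2f1, Cdc6, Cdt1, Foxm1 and Cenpa) and 12 were below it on some. Differences of genes near background understate a change, and no fold is given where both groups lay there. Without ShCtrl array 4 and ShBNIP3 array 10, 8 genes fell and 3 rose, against 10.1% and 9.84% of all probesets, and the medians were -0.58 for mitotic, -0.24 for replication and 0.09 for G1/S genes. On these 8 arrays 5 mitotic genes fell (Ccnf, Cdk1, Cdc25b, Aurkb and Ube2c), the same 5 mitotic genes that passed in each of the 10 fits with 1 array left out.

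Of the mitotic cyclins, Cdk1 and its phosphatases, 3 of 6 fell (50%, against 8.27% of named genes). Cdk1, the kinase whose activity drives entry into mitosis, was at 7.73, 7.07, 7.79, 7.55 and 7.61 in ShBNIP3, against 8.02, 8.09, 8.79, 8.76 and 8.93 in ShCtrl. Every ShBNIP3 array lay below every ShCtrl array, and Cdk1 fell by 0.97 (SE 0.20, 1.96-fold, adjusted p = 0.00629). Cdc25b, the phosphatase that removes the inhibitory phosphates from Cdk1, was at 6.17, 5.23, 5.66, 5.50 and 5.06 in ShBNIP3, against 6.48, 6.52, 7.21, 6.65 and 6.57 in ShCtrl. The groups did not overlap here either (difference -1.16, SE 0.21, adjusted p = 0.00222), but all 5 ShBNIP3 and 3 ShCtrl arrays were below background. Ccnf, cyclin F, which activates no known cyclin-dependent kinase and acts as a substrate receptor of an SCF ubiquitin ligase, was at 6.53, 5.70, 6.29, 6.45 and 6.26 in ShBNIP3, all below background, against 7.10, 6.91, 7.36, 8.02 and 7.05 in ShCtrl. It was at least 1.5-fold lower in ShBNIP3, taking the background level where its own value lay under it (adjusted p = 0.00562). Of all probesets, 6.29% had ShBNIP3 arrays all below the ShCtrl arrays. Among the 51 genes this held for 5: Cdk1, Cdc25b, Ccnf, Foxm1 and Aurkb. The opposite order held for 0 of 51, against 6.6% of all probesets.

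The activating cyclins of Cdk1 did not pass the test. Ccna2, cyclin A, which acts in S phase and early mitosis, averaged 7.72 ± 0.50 in ShBNIP3 and 8.38 ± 0.77 in ShCtrl (difference -0.67, adjusted p = 0.238). Ccnb1 and Ccnb2, the B-type cyclins that form the mitotic kinase with Cdk1, differed by -0.48 (95% interval -1.04 to 0.08) and -0.45 (95% interval -1.24 to 0.34). The intervals of both include a fall as large as that of Cdk1.

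The transcription factors of the mitotic programme were dim. Foxm1, which activates late cell cycle genes, was below background on all 10 arrays, at 4.81, 4.73, 4.81, 4.41 and 4.44 in ShBNIP3, against 4.83, 5.01, 5.84, 5.43 and 6.17 in ShCtrl (adjusted p = 0.0299), and no fold is given. The lowest ShCtrl array was only just above the highest ShBNIP3 arrays. Its call was lost in 5 of 10 fits with 1 array left out (ShCtrl 3 or 5, or ShBNIP3 7, 9 or 10), with adjusted p between 0.0528 and 0.077. Mybl2, which encodes B-MYB, a partner of MuvB, was below background on all ShBNIP3 arrays and on 3 ShCtrl arrays, and did not pass (5.58 ± 0.23 in ShBNIP3 and 6.18 ± 0.57 in ShCtrl, adjusted p = 0.118).

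Among the kinases, Aurkb, the enzyme of the chromosomal passenger complex that corrects chromosome attachments and drives cytokinesis, was at 6.85, 6.24, 7.12, 6.91 and 6.53 in ShBNIP3, against 7.35, 7.24, 8.63, 7.71 and 7.81 in ShCtrl. The groups did not overlap, and Aurkb fell 2.03-fold (difference -1.02, SE 0.25, adjusted p = 0.0138), with 2 ShBNIP3 arrays below background. Birc5, survivin, a subunit of the same complex, was at 9.28, 9.08, 8.95, 8.54 and 7.99 in ShBNIP3, against 8.14, 8.40, 9.49, 8.91 and 8.62 in ShCtrl. Its groups lay on top of each other (difference 0.06, 95% interval -0.54 to 0.65, adjusted p = 0.933). Aurka, the related kinase of the spindle poles, also overlapped (7.36 ± 0.59 in ShBNIP3 and 7.38 ± 0.50 in ShCtrl, 95% interval of the difference -0.65 to 0.60).

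Bub1, a kinase of the spindle checkpoint that sits at kinetochores, was at 7.57, 7.02, 7.20, 7.45 and 6.49 in ShBNIP3, against 7.50, 7.39, 8.70, 8.21 and 8.46 in ShCtrl. ShCtrl arrays 1 and 2 lay within the ShBNIP3 range, and Bub1 fell 1.88-fold (difference -0.91, SE 0.27, adjusted p = 0.04), with 1 ShBNIP3 array below background. The call was lost without ShCtrl array 3, 4 or 5 or ShBNIP3 array 7, 8, 9 or 10, at adjusted p between 0.051 and 0.0988, and with array weights. Plk1, the polo-like kinase needed for spindle assembly and mitotic exit, had the largest negative difference of the 51 genes and did not pass (difference -1.19, SE 0.39, adjusted p = 0.0569). It was at 9.51, 9.38, 9.26, 8.69 and 8.04 in ShBNIP3, against 9.23, 9.43, 11.15, 10.08 and 10.92 in ShCtrl. ShCtrl arrays 1 and 2 again lay inside the ShBNIP3 range, and without array 1 or array 2 the adjusted p of Plk1 was 0.0294 or 0.0432.

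Of the partners of the anaphase-promoting complex, the ubiquitin ligase that ends mitosis, 1 of 2 fell (50%, against 8.27% of named genes). Ube2c, the ubiquitin-conjugating enzyme that works with it, was at 7.98, 6.70, 7.08, 7.03 and 6.66 in ShBNIP3, against 7.53, 8.12, 8.80, 8.17 and 8.26 in ShCtrl. Only ShBNIP3 array 6 reached the ShCtrl values, and Ube2c fell 2.12-fold (difference -1.09, SE 0.26, adjusted p = 0.0141), with 1 ShBNIP3 array below background. Cdc20, its activator in early mitosis, differed by -0.17 (95% interval -0.78 to 0.44), with 3 arrays of each group below background.

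Mki67, the antigen Ki-67 that coats mitotic chromosomes and is the common stain for dividing cells, was at 10.75, 9.63, 9.65, 9.65 and 9.46 in ShBNIP3, against 10.17, 10.48, 11.60, 11.37 and 11.18 in ShCtrl. Without array 6, at 10.75, the ShBNIP3 arrays would lie below all ShCtrl arrays. Mki67 fell 2.19-fold (difference -1.13, SE 0.30, adjusted p = 0.0215). The adjusted p was between 0.0524 and 0.0558 without ShCtrl array 3 or 5 or ShBNIP3 array 7, 8 or 9, and 0.0612 without ShCtrl array 4 and ShBNIP3 array 10. Cenpf, a large kinetochore protein that accumulates late in the cycle, had the same shape, with 8.10, 6.91, 7.01, 6.94 and 6.94 in ShBNIP3, against 7.59, 7.60, 8.60, 8.53 and 8.42 in ShCtrl. It fell 1.96-fold (difference -0.97, SE 0.27, adjusted p = 0.0297), a call lost without ShCtrl array 3, 4 or 5 or ShBNIP3 array 7, 8, 9 or 10 (adjusted p between 0.0533 and 0.0763). Cenpa, the histone variant that marks centromeres, was below background on all arrays.

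**Figure D2:**
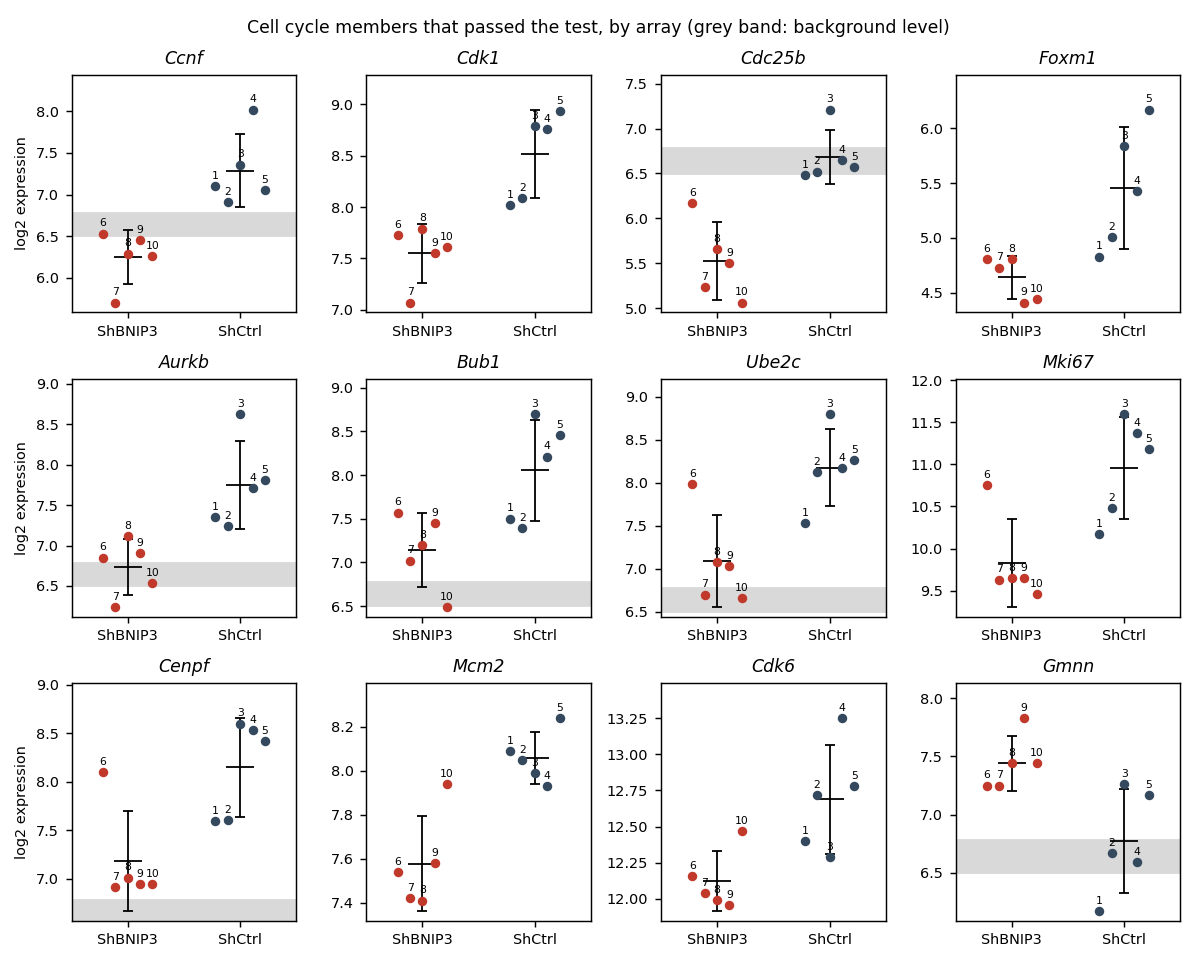
Level (log2 expression) on every array of the 12 genes that passed the test, with array numbers beside the points, group means and SDs as bars (n = 5), and a grey band for the range of background levels. ShBNIP3 array 6 stands above the other ShBNIP3 arrays for Mki67 and Cenpf, and ShCtrl arrays 1 and 2 stand below arrays 3, 4 and 5 for Cdk1, Aurkb, Bub1, Mki67 and Cenpf.

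Spindle motors and microtubule proteins had 7 of 7 negative differences, between -0.86 and -0.38. Of these 7, 0 passed (3 at an unadjusted p under 0.05 in limma), against 17.1% of named genes that passed in either direction. Prc1, which bundles microtubules in the spindle midzone, was at 9.30, 8.99, 9.16, 9.28 and 9.19 in ShBNIP3, against 8.95, 9.49, 10.90, 10.35 and 10.53 in ShCtrl. Its ShBNIP3 arrays were tightly grouped and its ShCtrl arrays ranged widely, with array 1 below all ShBNIP3 arrays (difference -0.86, SE 0.30, adjusted p = 0.079, and 0.00864 without ShCtrl array 1). Kif11, the kinesin that pushes the spindle poles apart, differed by -0.70 (SE 0.26, adjusted p = 0.0973, and 0.0343 without ShCtrl array 1). Ect2, the exchange factor that activates RhoA for cytokinesis, differed by -0.20 (95% interval -0.84 to 0.44).

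The mitotic genes varied together among arrays of the same group. In ShBNIP3, array 6 was the highest for 18 of 27 mitotic genes and array 10 the lowest for 18 of 27. In ShCtrl, array 3 was the highest for 22 of 27 mitotic genes and array 1 the lowest for 20 of 27, and arrays 1 and 2 were the lowest pair for 20 of 27. The mean of the 27 genes, relative to the ShCtrl mean, was -0.25, -0.71, -0.53, -0.73 and -1.10 in ShBNIP3, against -0.61, -0.38, 0.64, 0.01 and 0.35 in ShCtrl. The groups therefore overlapped in this mean: ShBNIP3 array 6 lay above ShCtrl arrays 1 and 2, and ShBNIP3 array 8 lay between them. A mitotic gene spanned a median range of 1.09 over the ShBNIP3 arrays and 1.33 over the ShCtrl arrays, more than the median difference between groups. The replication genes followed a like order in ShCtrl, with means of -0.44, -0.22, 0.42, -0.02 and 0.27, but in ShBNIP3 they lay at 0.08, -0.25, -0.13, -0.12 and -0.08, inside the ShCtrl range.

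**Figure D3:**
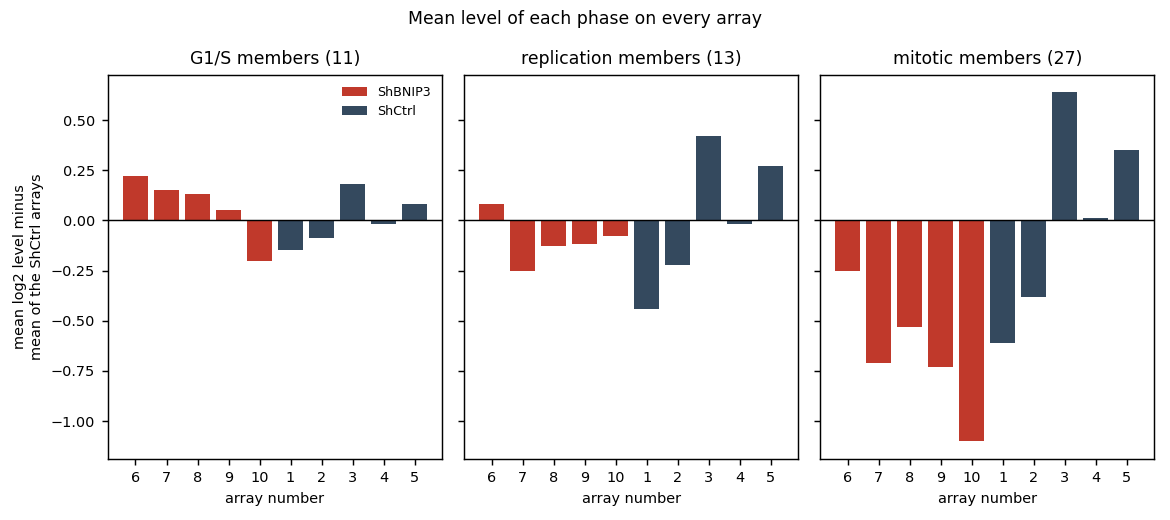
Mean log2 level of the G1/S (11), replication (13) and mitotic (27) genes on each array, relative to the mean of the 5 ShCtrl arrays (bars, 1 per array). All 5 ShBNIP3 bars of the mitotic panel lie between -1.10 and -0.25, and the ShCtrl bars of arrays 1 and 2 lie at -0.61 and -0.38.

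Of the 8 licensing and helicase genes measured, 1 fell and 1 rose (12.5% each, against 8.27% and 8.87% of named genes), and 6 did not pass. Mcm2, a subunit of the ring-shaped MCM helicase, was at 7.54, 7.42, 7.41, 7.58 and 7.94 in ShBNIP3, against 8.09, 8.05, 7.99, 7.93 and 8.24 in ShCtrl. Only ShBNIP3 array 10 entered the ShCtrl range, and Mcm2 fell 1.40-fold (difference -0.48, SE 0.13, adjusted p = 0.0218, and between 0.0556 and 0.0579 without ShCtrl array 5 or ShBNIP3 array 7 or 8). The other 4 measured helicase subunits did not pass: Mcm3 differed by -0.25, Mcm4 by 0.05, Mcm6 by -0.42 and Mcm7 by -0.32.

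Gmnn, geminin, which blocks relicensing by holding Cdt1 until mitosis ends, was the 1 gene of the 51 that rose. It was at 7.25, 7.25, 7.44, 7.83 and 7.44 in ShBNIP3, against 6.17, 6.67, 7.26, 6.59 and 7.17 in ShCtrl, where 3 arrays were below background. ShCtrl array 3 reached the lowest ShBNIP3 values and the other ShCtrl arrays lay below them, and the rise was 1.59-fold (difference 0.67, SE 0.20, adjusted p = 0.0414). The call was lost in 8 of 10 fits with 1 array left out (without ShCtrl array 1, 2 or 4 or any ShBNIP3 array), with adjusted p between 0.0533 and 0.105, and the adjusted p was 0.0804 without ShCtrl array 4 and ShBNIP3 array 10. Cdt1 and the loader Cdc6 were below background on all arrays.

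Of the 5 genes of the replication fork and of nucleotide supply, 0 passed (0 at an unadjusted p under 0.05 in limma), against 17.1% of named genes that passed in either direction. Rrm2, the regulated subunit of ribonucleotide reductase, was at 11.28, 10.27, 10.59, 10.11 and 10.47 in ShBNIP3, against 10.30, 10.75, 11.96, 11.30 and 11.64 in ShCtrl (difference -0.65, SE 0.30, adjusted p = 0.192). Array 6 was its highest in ShBNIP3 and array 9 its lowest, and in ShCtrl arrays 3 and 5 were the highest and array 1 the lowest. Pcna, the sliding clamp of the polymerases, differed by -0.19 (95% interval -0.56 to 0.19), and Rrm1 by -0.03 (95% interval -0.43 to 0.37).

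The D-type cyclins and Cdk4, which act at the start of the cycle, had positive differences that did not pass with all arrays. Ccnd1, cyclin D, the target of growth factor signals, was at 15.43, 15.34, 15.50, 15.62 and 14.03 in ShBNIP3, against 13.97, 14.23, 14.77, 13.68 and 14.61 in ShCtrl. The first 4 ShBNIP3 values lay above all ShCtrl values and that of array 10 did not (difference 0.93, SE 0.30, adjusted p = 0.0517). Without ShBNIP3 array 10 the difference was 1.22 (adjusted p = 0.00175), without ShCtrl array 3 it was 1.06 (adjusted p = 0.0444), and without ShCtrl array 4 and ShBNIP3 array 10 it was 1.08 (adjusted p = 0.000894). Ccnd3 was at 15.18, 15.01, 14.84, 14.69 and 14.41 in ShBNIP3, against 14.30, 14.46, 14.12, 14.56 and 14.34 in ShCtrl, again with array 10 inside the ShCtrl range. Its difference was 0.47 (SE 0.15, adjusted p = 0.0572), and 0.57 (adjusted p = 0.0147) without ShBNIP3 array 10 or 0.52 (adjusted p = 0.0409) without ShCtrl array 4.

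Ccnd2 and Cdk4 were also low on array 10. Ccnd2 was at 13.93, 13.90, 13.42, 13.57 and 10.92 in ShBNIP3, against 13.52, 13.49, 13.27, 10.98 and 13.34 in ShCtrl, so arrays 10 and 4 both lay more than 2 units under the rest of their groups. Without these 2 arrays its difference was 0.30 (adjusted p = 0.183). Cdk4, the kinase that D-type cyclins activate, differed by 0.49 (adjusted p = 0.212), and by 0.53 without both arrays (adjusted p = 0.0373).

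Cdk6, the close relative of Cdk4, went the other way. It was at 12.16, 12.04, 11.99, 11.96 and 12.47 in ShBNIP3, against 12.40, 12.72, 12.29, 13.25 and 12.78 in ShCtrl, with array 10 the only ShBNIP3 array inside the ShCtrl range. The fall was 1.48-fold (difference -0.57, SE 0.18, adjusted p = 0.0499). That call was lost without ShCtrl array 2, 4 or 5 or ShBNIP3 array 6, 7, 8 or 9 (adjusted p between 0.0755 and 0.113) and with quantile normalization. Without ShCtrl array 4 and ShBNIP3 array 10 it was -0.51 (adjusted p = 0.0207). Ccne2, the E-type cyclin that was above background, differed by -0.64 (adjusted p = 0.12, and 0.0194 without both arrays), while Ccne1 was below background on all arrays. Rbl1, p107 of the RB family, differed by 0.01 (95% interval -0.45 to 0.47), and E2f7, a repressor of E2F targets, by -0.25 with 9 of 10 arrays below background.

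The promoters of the genes were compared by their sequence, which the choice of genes did not use. RefSeq windows of 300 bases on assembly GRCr8, from 250 bases before to 50 after the gene start, were found for 46 of the 60 genes. No window was matched for Aurkb, Ccna2, Ccnd1, Ccnd2, Ccne2, Cdc6, Cdk6, E2f1, E2f2, Foxm1, Mcm4, Rrm2, Tpx2 and Ube2c. They were searched on both strands for the cell cycle homology region (CHR, TTTGAA), to which MuvB binds, for the box of the factor NF-Y (CCAAT), and for E2F elements (spelled TTCCCGC, or else TTGGCGC, or else TTCGCGC, or else TTGCCGC). A CHR match was found in 20 of 28 mitotic promoters (71.4%), 1 of 11 replication promoters and 0 of 7 G1/S promoters, against 18.3% of all 33469 promoters. An E2F match was found in 9 of 11 replication promoters (81.8%), 4 of 7 G1/S promoters and 6 of 28 mitotic promoters (21.4%), against 9.52% of all promoters. CCAAT was found in 22 of 28 mitotic promoters (78.6%), against 37.5% of all, and 17 mitotic promoters held both CHR and CCAAT (60.7%, against 7.41% of all). Among the 12924 promoters of genes with a named probeset, the share was 15% for CHR and 13.9% for E2F. In that set it was 37.7% for CCAAT and 6.2% for CHR with CCAAT.

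The windows of all 8 genes that passed the test and had one are shown, in the direction of the gene, with every match in capitals. Cdk1 (chr20:19265043-19265342, plus strand), Ccnf (chr10:13783620-13783919, minus strand), Cdc25b (chr3:138859923-138860222, plus strand), Bub1 (chr3:135504872-135505171, minus strand), Mki67 (chr1:199952544-199952843, minus strand) and Cenpf (chr13:103760837-103761136, minus strand) are mitotic genes that fell. Mcm2 (chr4:122918045-122918344, minus strand) is the helicase gene that fell and Gmnn (chr17:40729584-40729883, plus strand) the gene that rose.
Cdk1: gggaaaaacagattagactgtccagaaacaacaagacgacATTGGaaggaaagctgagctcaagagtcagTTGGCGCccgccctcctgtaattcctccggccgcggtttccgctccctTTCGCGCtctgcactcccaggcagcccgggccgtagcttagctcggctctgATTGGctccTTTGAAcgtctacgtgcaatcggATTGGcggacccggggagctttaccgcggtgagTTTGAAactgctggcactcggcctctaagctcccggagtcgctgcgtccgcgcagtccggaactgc
Ccnf: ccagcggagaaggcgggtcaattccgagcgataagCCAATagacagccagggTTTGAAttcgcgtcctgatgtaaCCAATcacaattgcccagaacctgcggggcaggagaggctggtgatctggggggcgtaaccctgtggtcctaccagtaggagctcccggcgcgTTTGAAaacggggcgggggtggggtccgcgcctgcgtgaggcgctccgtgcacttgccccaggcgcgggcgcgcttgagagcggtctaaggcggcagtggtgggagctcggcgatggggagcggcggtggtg
Cdc25b: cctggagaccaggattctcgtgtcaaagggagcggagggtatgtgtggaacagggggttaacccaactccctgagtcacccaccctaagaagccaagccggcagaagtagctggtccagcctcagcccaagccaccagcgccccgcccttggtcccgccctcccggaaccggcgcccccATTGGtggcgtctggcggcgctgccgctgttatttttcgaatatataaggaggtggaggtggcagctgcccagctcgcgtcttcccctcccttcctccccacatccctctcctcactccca
Bub1: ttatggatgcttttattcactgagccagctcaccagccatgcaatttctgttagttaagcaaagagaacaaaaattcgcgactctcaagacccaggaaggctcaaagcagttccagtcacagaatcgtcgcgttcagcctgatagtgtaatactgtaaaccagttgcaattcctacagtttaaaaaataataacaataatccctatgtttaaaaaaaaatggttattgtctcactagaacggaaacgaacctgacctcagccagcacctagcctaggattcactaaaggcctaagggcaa
Mki67: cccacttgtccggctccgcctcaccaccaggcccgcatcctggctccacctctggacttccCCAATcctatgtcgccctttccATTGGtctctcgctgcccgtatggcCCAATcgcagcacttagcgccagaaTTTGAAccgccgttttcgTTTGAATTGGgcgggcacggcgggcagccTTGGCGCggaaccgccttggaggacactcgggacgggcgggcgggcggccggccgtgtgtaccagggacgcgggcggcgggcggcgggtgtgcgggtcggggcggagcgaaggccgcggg
Cenpf: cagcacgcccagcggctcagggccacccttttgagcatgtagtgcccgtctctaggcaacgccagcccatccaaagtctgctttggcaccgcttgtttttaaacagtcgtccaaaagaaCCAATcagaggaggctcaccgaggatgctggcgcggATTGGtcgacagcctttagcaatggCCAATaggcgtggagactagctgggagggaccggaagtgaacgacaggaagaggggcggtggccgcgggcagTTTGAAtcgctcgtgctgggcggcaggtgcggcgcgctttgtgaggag
Mcm2: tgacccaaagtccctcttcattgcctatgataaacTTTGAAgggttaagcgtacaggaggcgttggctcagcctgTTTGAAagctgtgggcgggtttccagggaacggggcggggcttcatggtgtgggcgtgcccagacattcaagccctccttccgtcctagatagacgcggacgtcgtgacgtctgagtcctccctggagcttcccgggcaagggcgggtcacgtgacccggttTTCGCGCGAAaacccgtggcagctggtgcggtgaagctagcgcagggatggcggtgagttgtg
Gmnn: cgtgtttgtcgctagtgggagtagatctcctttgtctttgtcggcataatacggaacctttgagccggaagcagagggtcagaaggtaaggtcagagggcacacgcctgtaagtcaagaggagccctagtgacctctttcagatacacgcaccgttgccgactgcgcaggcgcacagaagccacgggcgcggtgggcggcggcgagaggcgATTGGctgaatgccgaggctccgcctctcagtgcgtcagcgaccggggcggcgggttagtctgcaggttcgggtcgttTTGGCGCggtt
Cdk1 holds 2 CHR, 3 CCAAT and 2 E2F matches, Ccnf 2 CHR and 2 CCAAT, Mki67 2 CHR, 4 CCAAT and 1 E2F, and Cenpf 1 CHR and 3 CCAAT. Cdc25b holds 1 CCAAT match, and Bub1 has none of the searched motifs in this window. Mcm2, the 1 replication gene with a CHR match, holds 2 CHR and 2 E2F matches. In Mki67 a CHR and a CCAAT match on the other strand share bases, and in Mcm2 the 2 E2F matches overlap, 1 on each strand. Gmnn holds 1 CCAAT and 1 E2F match and no CHR match. A match is a run of letters and not a measured binding site. Within the mitotic genes the median difference was -0.50 over the 15 measured genes with a CHR match, 4 of which fell, and -0.60 over the 7 without one, 2 of which fell (Cdc25b and Bub1).

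**Figure D4:**
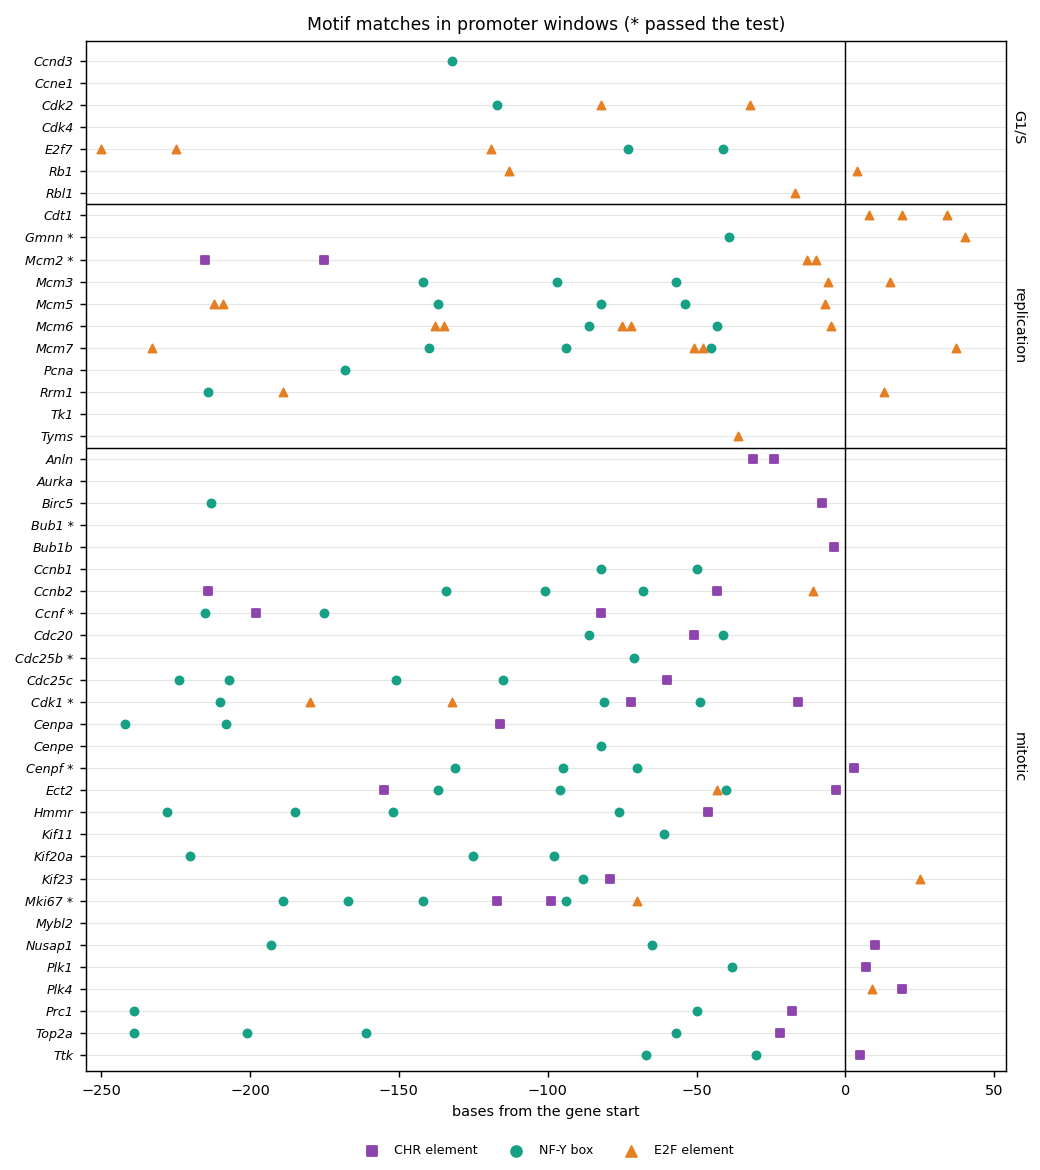
Positions of CHR elements (squares), NF-Y boxes (circles) and E2F elements (triangles) in the promoter windows of 46 genes, in bases from the gene start, with G1/S genes at the top, replication genes in the middle and mitotic genes below. Squares crowd into the mitotic block (20 of 28 promoters) and triangles into the replication block (9 of 11).

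Other genes of the cell cycle, taken from 9 lists of 203 measured genes that are not among the 60, were measured on the same arrays. These lists, too, were chosen with earlier results of these data known, which limits every share given for them. Of all 203, 23 fell (11.3%) and 11 rose (5.42%), with a median difference of -0.06, against 8.27% of all named genes that fell, 8.87% that rose and a median of 0.03. Of 35 kinesins and proteins of the spindle and of cytokinesis, 6 fell (17.1%) and 0 rose (median -0.41). Among the 6, Kif2c and Kif15 were below background on all arrays. Cep55, which recruits the membrane-cutting machinery at abscission, averaged 5.67 ± 0.28 in ShBNIP3 and 6.68 ± 0.57 in ShCtrl (adjusted p = 0.0135), with all 5 ShBNIP3 and 3 ShCtrl arrays below background. Iqgap3, a scaffold protein found in dividing cells, averaged 6.47 ± 0.35 in ShBNIP3 and 7.41 ± 0.44 in ShCtrl (adjusted p = 0.0113). Its groups overlapped, and 4 ShBNIP3 arrays were below background.

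Of 29 kinetochore and checkpoint genes, 3 fell (10.3%, near the 8.27% of all named genes) and 0 rose (median -0.19). Zwint, a kinetochore protein that helps to recruit the dynein adaptor complex, was at 11.24, 10.72, 10.99, 10.95 and 10.88 in ShBNIP3, against 12.48, 12.51, 12.20, 11.74 and 12.28 in ShCtrl. The groups did not overlap, and Zwint fell 2.44-fold (difference -1.29, SE 0.16, adjusted p = 0.000176). ShCtrl arrays 1 and 2 were the highest of their group for Zwint. Cenpq, of the inner kinetochore, fell 1.63-fold (difference -0.71, SE 0.15, adjusted p = 0.0062). Among 14 genes of cohesin, condensin and separation, 1 fell (7.14%, against 8.27% of named genes) and 0 rose. The gene that fell was Pttg1, securin, which holds separase in check until anaphase. Pttg1 was at 5.91, 6.24, 6.13, 6.15 and 6.05 in ShBNIP3, all below background, against 6.80, 7.37, 7.89, 7.13 and 7.67 in ShCtrl, at least 1.59-fold lower in ShBNIP3 (adjusted p = 0.000554).

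Of 43 replication genes outside the 60, 5 fell (11.6%, against 8.27% of named genes) and 1 rose (2.33%, against 8.87%), with a median of -0.07. Orc4, a subunit of the origin recognition complex, was at 11.53, 11.59, 11.74, 11.61 and 11.43 in ShBNIP3, against 10.73, 10.60, 10.66, 10.54 and 10.58 in ShCtrl. Its groups were far apart with little spread, and it rose 1.94-fold (difference 0.96, SE 0.11, adjusted p = 7.23e-05). Prim1, the primase subunit that makes RNA primers, fell 1.47-fold (adjusted p = 0.0399). Its call was lost without ShCtrl array 1, 3 or 5 or ShBNIP3 array 7, 8, 9 or 10 (adjusted p at most 0.0998). Ung, the uracil glycosylase, was below background on all arrays.

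Of 23 genes of cell cycle ubiquitin ligases and related proteins, 7 rose (30.4%, against 8.87% of named genes) and 0 fell, with a median of 0.19. Besides subunits of ligases, the list holds ubiquitin-conjugating enzymes and other related proteins. Among the 7, Skp2 was below background on all arrays (adjusted p = 0.0496). Btrc, the substrate receptor β-TrCP of an SCF ligase, was at 11.12, 11.21, 11.16, 11.07 and 10.66 in ShBNIP3, against 10.38, 10.51, 10.16, 9.98 and 10.40 in ShCtrl. All ShBNIP3 arrays lay above all ShCtrl arrays, and Btrc rose 1.69-fold (difference 0.76, SE 0.14, adjusted p = 0.00328). Ube2d1, a ubiquitin-conjugating enzyme, rose 1.46-fold (adjusted p = 0.0213, and at most 0.0578 without ShCtrl array 3 or ShBNIP3 array 7 or 9).

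Of 13 E2F, RB family and MuvB genes outside the 60, 3 fell (23.1%, against 8.27% of named genes) and 1 rose (7.69%, against 8.87%). Rbl2, p130, the RB family member of the DREAM complex, was at 9.16, 9.44, 9.33, 9.24 and 9.55 in ShBNIP3, against 10.33, 10.42, 10.46, 9.75 and 10.74 in ShCtrl. It fell 2.00-fold with no overlap (SE of the log2 difference 0.17, adjusted p = 0.00154). E2f6, a repressor of the family that does not bind RB, was at 8.23, 8.59, 8.12, 7.68 and 8.78 in ShBNIP3, against 9.15, 9.22, 9.19, 9.42 and 9.31 in ShCtrl (difference -0.98, SE 0.18, adjusted p = 0.00299). E2f3, an activator, was at 8.54, 8.40, 8.05, 8.60 and 8.38 in ShBNIP3, against 7.51, 7.64, 7.17, 7.44 and 7.35 in ShCtrl, and rose 1.96-fold (difference 0.97, SE 0.14, adjusted p = 0.000406). Neither pair of groups overlapped.

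Of the 21 checkpoint and fork repair genes, 1 fell and 1 rose (4.76% each, against 8.27% and 8.87% of named genes). Cdc25a, the phosphatase that activates Cdk2 and is destroyed when DNA is damaged, was at 8.83, 8.97, 9.14, 8.79 and 9.47 in ShBNIP3, against 8.12, 7.84, 8.07, 8.31 and 8.34 in ShCtrl. All ShBNIP3 arrays lay above all ShCtrl arrays, and Cdc25a rose 1.87-fold (difference 0.90, SE 0.15, adjusted p = 0.00162). The gene that fell, Rad54l, a recombination helicase, was below background on all arrays. Among 18 further cyclins and kinases, 3 fell (16.7%, against 8.27% of named genes) and 0 rose. Cdk19, the Mediator kinase, was 4.09-fold lower (11.35 ± 0.20 in ShBNIP3 and 13.39 ± 0.20 in ShCtrl, adjusted p = 1.53e-06). Ccny, a membrane-bound cyclin, was 1.59-fold lower (adjusted p = 0.00604).

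The CDK inhibitors, which oppose these kinases, had 1 of 7 higher and 1 lower (14.3% each, against 8.87% and 8.27% of named genes). Cdkn2b, p15, which blocks Cdk4 and Cdk6, was at 12.59, 12.57, 12.86, 12.93 and 10.47 in ShBNIP3, against 10.86, 10.96, 11.18, 9.66 and 10.81 in ShCtrl. It rose 3.01-fold (difference 1.59, SE 0.43, adjusted p = 0.0246), with array 10 low, as for the D-type cyclins. The adjusted p lay between 0.0568 and 0.0674 without ShBNIP3 array 6, 7, 8 or 9, and was 0.0609 with a trended and robust variance. Without ShBNIP3 array 10 the difference of Cdkn2b was 2.04 (adjusted p = 0.000252). Without ShCtrl array 4 and ShBNIP3 array 10 it was 1.78 (adjusted p = 3.73e-06). Cdkn2c, p18, fell 1.68-fold with no overlap (difference -0.75, SE 0.18, adjusted p = 0.0124). Cdkn1a (p21) and Cdkn2a differed by 0.42 and 0.78 (adjusted p = 0.387 and 0.159), and passed without ShBNIP3 array 10 (adjusted p = 0.032 and 0.00399). Cdkn1b differed by -0.39 (adjusted p = 0.107) and Cdkn2d by -0.11 (adjusted p = 0.781), and Cdkn1c was below background on all arrays.

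**Figure D5:**
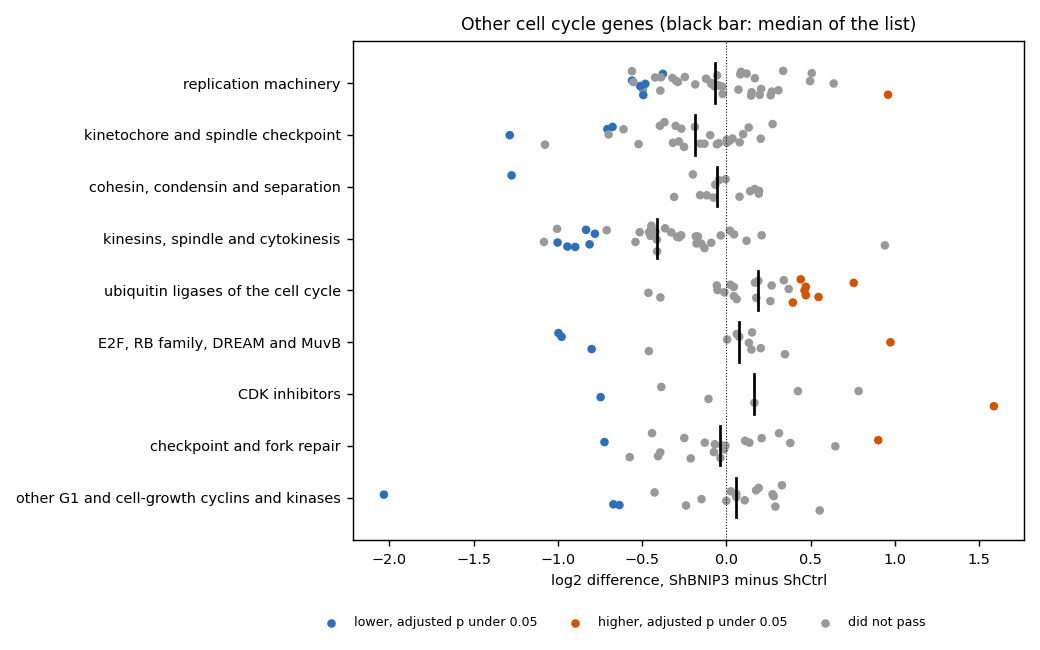
Differences (ShBNIP3 minus ShCtrl, log2) of 203 measured cell cycle genes outside the 60, 1 point per gene and 1 row per list, with the median of each list as a black bar. The medians lie between -0.41 for kinesins, spindle and cytokinesis and 0.19 for ubiquitin ligases and related proteins.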

How the data were processed

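Total RNA of 10 samples was labelled with the GeneChip WT Plus kit and hybridised to Affymetrix arrays. The deposited values are log2 expression per probeset, normalized by the authors with sst-rma, per the labels. Transcriptome Analysis Console is named in the submitters' processing notes, and its version is not given in the sources used here. Of 24834 probesets, 1646 controls were left out, and 15049 of the 23188 tested carried a gene symbol in the platform annotation. The log2 values as deposited were fitted with limma 3.58.1 (lmFit and eBayes, R 4.3.3) on 2 groups with no covariate, and p-values were adjusted by Benjamini-Hochberg over all 23188. A gene with several probesets took the brightest. The fit was tested on simulated data. Summaries and promoter searches used Python 3.11.15 and scipy 1.17.1. Background was the 95th percentile of 23 antigenomic probesets per array. An "at least" fold sets the ShCtrl mean against the background level on the ShBNIP3 arrays. No scanner files were used here, so scan batches were not examined. The number of arrays limits the precision.

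The members and gene lists were chosen with earlier results of these data known. Genes were named by this rule: Bnip3, every member that passed, members with an adjusted p of 0.05 to 0.1, Ube2c, Aurkb and Mki67, the member with the largest difference in each role, the 2 genes with the largest difference in each direction among those that passed in each other list, and the 7 CDK inhibitors. Further members are named to show where relatives of these genes did not pass, and were chosen after their values were seen. Skp2, Kif2c and Kif15 of the other lists are named only because they lay below background. The alternatives were leaving out arrays, array weights, a trended and robust variance, quantile normalization, a background filter, probesets with a symbol only and a 2-fold threshold. The labels' extraction text also speaks of tissue from mice, which does not match these rat cells and was not used.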

Additional observations from a re-analysis of the deposited data

Results flagged for a closer look

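For 9 of 90 groups of 5 arrays tested (45 named genes), the highest or lowest array was separated from its nearest neighbour by a larger share of the group's range than Dixon's critical value for 5 samples, which chance gives in about 1 of 20 groups. ShBNIP3 array 6 was high for Mki67, at 10.75 against 9.46 to 9.65 on the other ShBNIP3 arrays, and for Cenpf, at 8.10 against 6.91 to 7.01. ShBNIP3 array 10 was low for Ccnd1, at 14.03 against 15.34 to 15.62 on the other ShBNIP3 arrays, for Cdkn1a, at 14.38 against 15.64 to 15.83, for Cdkn2b, at 10.47 against 12.57 to 12.93, and for Btrc, at 10.66 against 11.07 to 11.21. The same array was high for Ccny, at 10.24 against 9.96 to 10.00. ShCtrl array 4 was low for Cdkn2b, at 9.66 against 10.81 to 11.18 on the other ShCtrl arrays, and ShCtrl array 3 was high for Cdc25b, at 7.21 against 6.48 to 6.65. Array 10 gave 5 of the 9.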

How the results depend on the processing

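With 1 array left out, 5 to 16 of the 51 genes fell and 0 to 3 rose, and the median difference lay between -0.56 and -0.30. The fall of Bnip3 stayed between -3.53 and -2.87. The count of genes that rose was 3 without ShCtrl array 4 and ShBNIP3 array 10, 3 with array weights, 2 with a trended and robust variance, 2 with quantile normalization and 3 among the 39 genes left by the background filter. With a 2-fold threshold added, 5 fell and 0 rose. The counts that fell under the other settings were 8 without both arrays, 10 with array weights, 11 with a trended and robust variance, 10 with quantile normalization and 10 with the background filter. Shares of all probesets were counted only for the fit described at the start and for that without both arrays. For the other settings a general change in calls is not set apart. Over the single genes, 71 values lost their call under an alternative, 22 gained one and 2 changed sign, Ect2 at 0.00 and Cdkn2d at 0.03, both without ShCtrl array 3 (range with 1 array left out -0.42 to 0.00 and -0.18 to 0.03). The cause of these changes was not tested. Signal near background limits Cdc25b, Ccnf and the 6 genes below it on all arrays, Foxm1 among them. Gmnn, Aurkb, Ube2c and Bub1, which also passed, were below background on some arrays. No paired analysis was made, because the labels do not pair the arrays. The array numbers of the 2 groups do not overlap, which does not exclude a pairing.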
